A study of Mus musculus with 18 samples.

Results

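The genes described here are 10 heat shock proteins and co-chaperones: the HSP70 genes Hspa1a, Hspa1b and Hspa8, the HSP110 gene Hsph1, the HSP40 gene Dnajb1, the exchange factor Bag3, the small heat shock protein Hspb1, the HSP90 gene Hsp90aa1 and the mitochondrial chaperonin pair Hspd1 and Hspe1. They were chosen by name, after the low levels of Hspa1a and Hspa1b with LPS+MIC-1 in the macrophage libraries were known, and all 10 were found among the 21441 genes of each of the 2 FPKM tables. The summed FPKM of Hspa1a and Hspa1b is given as well, because the sequences of this pair are nearly identical. Since macrophage values led to the choice, the macrophage values of the 10 genes are a description: no p-value is printed for them, and counts of those past a threshold stand only beside the share of all genes, with nothing read from them. Test results for the 10 genes are given for the liver.

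The series holds 18 RNA-seq libraries from mouse, 9 of macrophages and 9 of liver, with 3 libraries in each of the groups Control, LPS and LPS+MIC-1. LPS, lipopolysaccharide, is a bacterial cell wall component that provokes inflammation, and MIC-1 is moringa isothiocyanate-1, a compound from seeds of Moringa oleifera. All liver groups were wild type C57BL/6 mice. Per the study, mice received MIC-1 at 80 mg/kg in 10% DMSO, or vehicle, by gavage over 3 days before an injection. Control mice, named as vehicle control (10% DMSO), were injected with saline. LPS mice received LPS at 10 mg/kg into the peritoneum. LPS+MIC-1 mice received the same LPS injection after the gavage with MIC-1. Dosing was set on a seed extract that was 38.9% MIC-1 by weight, liver was taken 16 hours after the injection, and the libraries came from 9 mice, 3 of the 6 in each group. For the macrophages the labels repeat the strain and doses of the mice, the series design gives MIC-1 at 10 uM, and the study's methods name RAW264.7, an established mouse macrophage line. The LPS dose and time of the sequenced macrophages are not given in the sources used here. No group received MIC-1 without LPS, so a change with MIC-1 can be read only on top of LPS.

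Heat shock proteins are chaperones that bind unfolded proteins and hold, refold or hand them on for degradation. HSP40 proteins deliver a client to HSP70 and stimulate its ATPase, nucleotide exchange factors such as Hsph1 and Bag3 release it, and HSP90 completes the folding of kinases and steroid receptors. When unfolded protein accumulates, heat shock factor 1 (Hsf1) is freed from chaperones, forms trimers and binds heat shock elements, inverted repeats of the unit nGAAn, upstream of inducible genes such as Hspa1a, Hspa1b, Hspb1 and Dnajb1, while Hspa8 is made constitutively. In macrophages LPS signals through Toll-like receptor 4 and NF-kB, and in liver most of the RNA comes from hepatocytes, which answer an LPS injection by secreting acute-phase proteins.

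Hspa1a (chromosome 17, 35106144 to 35109069) and Hspa1b (chromosome 17, 35093381 to 35096183) lie on the minus strand of mm9, 9960 bases apart. Their coding sequences are 99.4% identical, their 3' untranslated regions 47.8% and the 250 bases before their start sites 98.8%, so reads from the coding part can be given to either gene. Hspd1 (chromosome 1, 55134679 to 55145087, minus strand) and Hspe1 (chromosome 1, 55144976 to 55148151, plus strand) are transcribed away from each other, and their annotated ends overlap by 112 bases. The 4 stretches below are shown because they hold the heat shock elements upstream of Hspa1a, Hspa1b and Hspb1, whose macrophage levels differed most between libraries, and of the chaperonin pair. They are RefSeq sequence of the build GRCm38.p6, at chr17:34972233-34972280 (minus strand), chr17:34959315-34959362 (minus strand), chr5:135887782-135887849 (plus strand) and chr1:55088039-55088096 (plus strand), and capitals mark the matched units.
Hspa1a: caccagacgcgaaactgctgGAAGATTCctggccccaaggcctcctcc
Hspa1b: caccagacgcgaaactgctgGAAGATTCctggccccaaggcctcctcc
Hspb1: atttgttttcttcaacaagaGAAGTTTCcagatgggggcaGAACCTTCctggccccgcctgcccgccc
Hspe1: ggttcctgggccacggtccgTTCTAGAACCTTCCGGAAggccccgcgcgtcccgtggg

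The stretches of Hspa1a and Hspa1b were the same in every base, with 1 element of 2 units at -104 to -97 from the start. Hspb1 held 2 such elements, at -117 to -110 and -97 to -90. The run of units in Hspe1, at -89 to -72, is read on the other strand at -144 to -127 in the window of Hspd1, so the pair shares it. The search used windows of 250 bases before to 50 bases after a start site and both strands, with GAANNTTCNNGAA and TTCNNGAANNTTC for 3 units and GAANNTTC and TTCNNGAA for 2 units, which lie inside the longer forms. Of 32851 windows of all genes, 0.603% held 3 units and 15.1% held 2 units. Windows were at hand for 8 of the 10 genes, 11 windows in all. The 3-unit form was in 4 of them (Hspe1, Hspd1 and both windows of Hsph1) and the 2-unit form in 8, which belonged to 7 genes. These windows are not separate sites, since Hspe1 and Hspd1 share a run and the windows of Hsph1 overlap and hold the same letters. The form in Bag3 lay after the start, at 43 to 50. The 3-unit form in Hsph1 also lay after the start, at 16 to 28 or 37 to 49 by window. Before the start Hsph1 held a 2-unit form, at -54 to -47 or -33 to -26. Both windows of Dnajb1 held neither form, and no window was at hand for Hspa8 or Hsp90aa1. A match is a description of these letters and not a measured binding site.

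Some libraries stood apart from their groups, and values are therefore given by library, numbered by their order in the table. In the macrophages, LPS library 2 lay nearest to Control library 2, with a spread of log2 differences over 5502 genes of 0.082 against 0.97 to the other LPS libraries, and its summed FPKM of 11 LPS response genes was 995 against 33107 and 33723. The study's own macrophage analysis left out an LPS library and did not say which. In the liver, LPS library 2 lay nearer to LPS+MIC-1 library 2 (0.43) than to the other LPS libraries (0.79), and LPS+MIC-1 library 2 lay nearer to LPS library 2 than to its own group (0.51). Whether the labels of macrophage LPS library 2 and of these 2 liver libraries are right cannot be told from the sources used here. All comparisons over 9 libraries take the labels as given, and LPS+MIC-1 against LPS in the liver holds a doubted library in both groups. Depth, estimated from the steps of low FPKM values, was 13.3 to 17.1 Mreads (megareads) in the macrophages and 3.41 to 14.6 Mreads in the liver. In every group 2 libraries, numbers 1 and 3 except in liver Control (2 and 3), lay closer to each other than to the third. Such pairs were at 1.36 to 4.01 times the sampling noise. Nothing in the labels says that the macrophage libraries came from separate cultures, so their p-values measure the spread between these libraries, which may be technical. In the liver, which the study took from separate mice, the closest pairs were at 1.88 to 4.01 times this noise. The other liver pairs within a group were at 16.2 to 38.4 times. Whether each close pair came from separate mice was not tested, so the liver p-values carry a like limit. The summed FPKM of 8 macrophage markers was 10969 to 13421 in the macrophage libraries, where 10 hepatocyte markers summed to 3.41 to 24.3, and the same 10 hepatocyte markers summed to 54756 to 113078 in the liver.

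The inducible HSP70 genes set the macrophage pattern. Hspa1a was at 0.205, 0.325 and 0.533 FPKM across Control, at 62.4, 0.637 and 61.6 under LPS and at 0.302, 0.511 and 0.293 under LPS+MIC-1. Hspa1b was at 1.96, 3.64 and 2.65 FPKM across Control, at 177, 3.26 and 174 under LPS and at 1.33, 1.85 and 1.21 under LPS+MIC-1. LPS libraries 1 and 3 were far above every other library for both genes, and LPS library 2 lay near the Control level, just above it for Hspa1a and within it for Hspa1b. Summed, the pair was at 3.11 ± 0.901 FPKM (SD, n = 3) in Control and 1.83 ± 0.460 (n = 3) with LPS+MIC-1. The LPS mean was 160 ± 135 over 3 libraries and 237 ± 2.30 over libraries 1 and 3, which was 76.4 times the Control mean and 130 times the LPS+MIC-1 mean. LPS library 2 was 1.25 times the Control mean. The ratio of Hspa1b to Hspa1a was 2.83 in both LPS libraries 1 and 3, against 4.98 to 11.2 in Control and 3.61 to 4.42 with LPS+MIC-1.

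Hspb1, which keeps unfolding proteins soluble and binds actin, was the other gene that appeared with LPS. It was listed at 0 in all 3 Control libraries, at 5.37, 0 and 5.96 FPKM with LPS, and at 0.133, 0.0668 and 0 with LPS+MIC-1. The values of LPS libraries 1 and 3 stood for about 52.4 and 60.5 estimated reads, and those with LPS+MIC-1 for about 1.9, 0.93 and 0 reads. The gene was thus detected clearly in the same 2 LPS libraries as the HSP70 pair, and no fold change is given because Control is at 0.

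Bag3, the exchange factor that couples HSP70 to small heat shock proteins and autophagy, followed the same libraries with a smaller range. It was at 25.4, 23.3 and 26.5 FPKM across Control, at 38.0, 26.1 and 35.9 under LPS and at 23.4, 25.2 and 22.99 under LPS+MIC-1. LPS libraries 1 and 3 averaged 1.47 times Control and 1.55 times LPS+MIC-1. Dnajb1, the inducible HSP40 partner of HSP70, stayed between 13.2 and 16.0 FPKM in all 9 libraries, and Hsph1, the HSP110 exchange factor, between 43.7 and 59.2. In LPS libraries 1 and 3 these genes averaged 1.10 and 1.01 times Control. The inducible HSP70 pair therefore differed between libraries by far more than its HSP40 and HSP110 partners.

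The constitutive HSP70 Hspa8, which folds new chains and uncoats clathrin vesicles, was the most abundant of the 10 genes in the macrophages. Control libraries had 2072, 1993 and 2092 FPKM, LPS libraries 2545, 1982 and 2550, and LPS+MIC-1 libraries 1146, 1415 and 1155. All 3 LPS+MIC-1 libraries lay below all 6 others, at a mean of 0.604 times Control. Hsp90aa1, the stress-inducible cytosolic HSP90, had the opposite order, at 384.5, 355.9 and 393.9 FPKM across Control, 367.4, 331.5 and 393.2 under LPS and 511.3, 692.3 and 498.4 under LPS+MIC-1. Its LPS+MIC-1 libraries lay above all 6 others. The ratio of Hspa8 to Hsp90aa1 within a library was 5.31 to 5.60 in the Control libraries, 5.98 to 6.93 under LPS and 2.04 to 2.32 under LPS+MIC-1, so it separated the LPS+MIC-1 libraries without use of the scaling between libraries.

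The mitochondrial chaperonin Hspd1 (HSP60) forms the folding chamber and Hspe1 (HSP10) its lid. Hspd1 was at 373, 306 and 377 FPKM across Control, at 127, 303 and 123 under LPS and at 156, 231 and 147 under LPS+MIC-1. Hspe1 was at 289, 259 and 288 FPKM across Control, at 313, 257 and 321 under LPS and at 160, 214 and 162 under LPS+MIC-1. In LPS libraries 1 and 3 Hspd1 was at 0.356 times Control while Hspe1 was at 1.14 times. The genes share the promoter region shown above. The ratio of Hspe1 to Hspd1 was 0.763 to 0.847 in the Control libraries, 2.47, 0.848 and 2.60 under LPS and 0.926 to 1.11 under LPS+MIC-1. Genes with a median transcript below 1000 bases, 1498 in all, had a median Log2FC of 0.22 between LPS and Control. The longer classes were at -0.02 to -0.12. These lengths are medians over all GENCODE protein-coding transcripts of a gene, at 774 bases for Hspe1 and 863 for Hspd1. The FPKM were computed on RefSeq transcripts, whose lengths were not used here. The length class of either gene on RefSeq transcripts is therefore not known. A fit with a trend in the GENCODE lengths removed was among the alternatives, but its values for Hspd1 and Hspe1 are not given here. The part of RefSeq transcript length in these values was not tested.

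**Figure D1:**
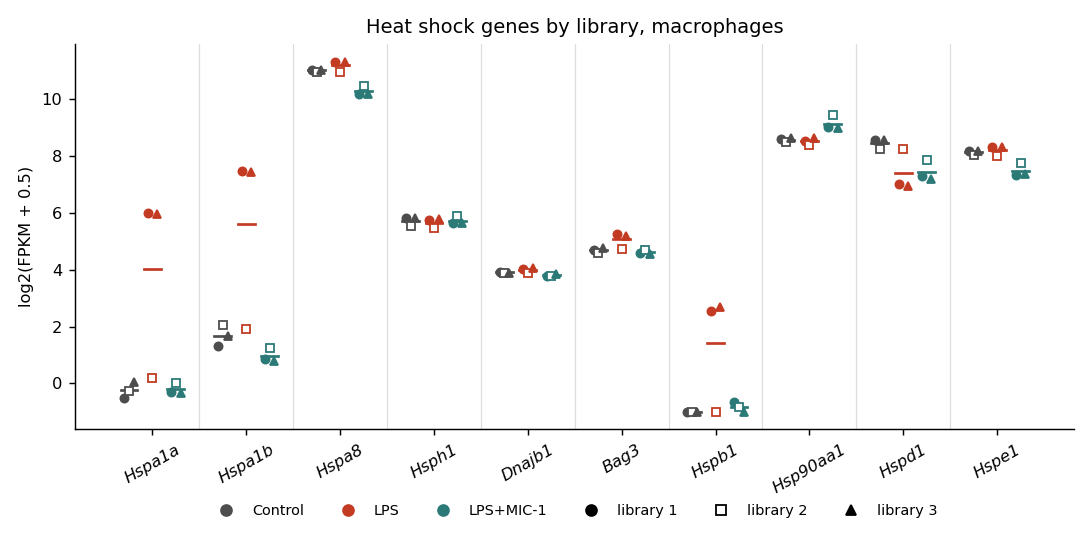
Expression of the 10 heat shock genes in the 9 macrophage libraries, as log2(FPKM + 0.5), with Control, LPS and LPS+MIC-1 in separate colours, library 2 of each group as an open square and the mean of the 3 log2 values as a bar. LPS libraries 1 and 3 stand far above the rest for Hspa1a, Hspa1b and Hspb1, while LPS library 2 (0.637, 3.26 and 0 FPKM) lies with Control.

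As Log2FC on the log2(FPKM + 0.5) scale, fitted over the 9 libraries with limma, LPS against Control was 4.28 for Hspa1a and 3.94 for Hspa1b, and -1.06 for Hspd1. Without LPS library 2 these values were 6.21, 5.79 and -1.48. LPS+MIC-1 against LPS was -4.25 for Hspa1a, -4.65 for Hspa1b, -0.93 for Hspa8 and 0.63 for Hsp90aa1, and without LPS library 2 Hspa8 was at -1.05 and Hsp90aa1 at 0.56. LPS+MIC-1 against Control was -0.73 for Hspa8, -0.65 for Hspe1, -1.01 for Hspd1, -0.71 for Hspa1b and 0.57 for Hsp90aa1. None of the 10 genes was called in any macrophage comparison over 9 libraries (adjusted p below 0.01 and a Log2FC beyond 1 in either direction), beside 0%, 3.87% and 5.59% of the 9905 genes tested for LPS against Control, LPS+MIC-1 against LPS and LPS+MIC-1 against Control. In the first of these, limma called 0 genes, with 4928 at an unadjusted p below 0.05. Without LPS library 2, 4 of the 10 genes were called for LPS against Control (Hspa1a, Hspa1b and Hspb1 higher, Hspd1 lower) beside 34.2% of all genes, 4 lower for LPS+MIC-1 against LPS (Hspa1a, Hspa1b, Hspa8 and Hspb1) beside 12%, and 1 lower for LPS+MIC-1 against Control (Hspd1) beside 8.2%. Ranges did not overlap for 2, 7 and 6 of the 10 genes in these comparisons, beside 33.3%, 36.1% and 66.4% of all genes. Nothing is read from these counts, since the macrophage values chose the genes.

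The deposited scaling sets several of these directions. The FPKM of all genes summed to 1137530 and 1132900 in LPS libraries 1 and 3 and to 557136 to 652486 in the other 7 macrophage libraries, and rescaling all libraries to the same sum shifted the median Log2FC of all genes by -0.63, 0.45 and -0.18 in the 3 comparisons. Under that scaling Hspa1a and Hspa1b kept their signs for LPS against Control and for LPS+MIC-1 against LPS, whereas Hspa8, Dnajb1, Hspe1 and Bag3 turned to lower with LPS, and Dnajb1 and Bag3 turned to higher with LPS+MIC-1 against LPS. In the liver the same rescaling shifted the median by -0.32, -0.25 and -0.58, and TMM factors turned the sign of 1 gene in 1 comparison, Hsph1 between LPS+MIC-1 and Control in the macrophages, where its Log2FC was 0.00.

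In the liver, Bag3 and Dnajb1 were the 2 of the 9 tested genes called higher with LPS. Hspa1a was not tested, and its LPS libraries also lay above every Control library, at low values. Bag3 was at 12.3, 9.52 and 7.49 FPKM across Control, at 28.4, 17.4 and 27.7 under LPS and at 22.2, 22.5 and 19.9 under LPS+MIC-1. Every library of either treated group lay above every Control library. The Log2FC of LPS against Control was 1.28 (SE 0.25, limma adjusted p = 0.00747), from 9.78 ± 2.43 to 24.5 ± 6.12 FPKM (SD, n = 3 each), and that of LPS+MIC-1 against Control was 1.12 (SE 0.25, limma adjusted p = 0.0101). With all libraries rescaled to the same FPKM sum, Bag3 was at 0.93 (limma adjusted p = 0.0166) and 0.49 (0.121) in these comparisons, so neither passed both thresholds under that scaling.

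Dnajb1 was at 3.11, 1.16 and 2.22 FPKM in liver Control, at 5.73, 6.14 and 3.66 with LPS, and at 6.46, 3.21 and 6.18 with LPS+MIC-1. Neither treated group overlapped Control, where the highest library was at 3.11 and the lowest treated library at 3.21. Log2FC was 1.13 against Control with LPS (SE 0.36, limma adjusted p = 0.0413) and 1.13 with LPS+MIC-1 (SE 0.36, limma adjusted p = 0.0397). These calls lie near both thresholds and were lost for LPS without LPS library 2 (1.00, limma adjusted p = 0.0806), with libraries rescaled to the same sum (0.84 with LPS, limma adjusted p = 0.0957, and 0.58 with LPS+MIC-1, 0.221) and when any of several other single libraries was left out. The 2 genes called higher of 9 tested stand beside 13.4% of the 10147 liver genes called higher with LPS and 13.8% with LPS+MIC-1, where called means an adjusted p below 0.05 and a Log2FC beyond 1 in either direction. The gene left out of the test was Hspa1a, whose mean FPKM in the liver was below 1. The ranges of 2 of the 9 genes (Dnajb1 and Bag3) did not overlap between LPS and Control, beside 24.2% of all genes with a higher range, and those of 5 (Hspa1b, Dnajb1, Hspe1, Hspd1 and Bag3) between LPS+MIC-1 and Control, beside 30.5%.

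Hspa8 in the liver was at 327, 127 and 105 FPKM across Control, at 545, 176 and 564 under LPS and at 414, 247 and 424 under LPS+MIC-1. LPS library 2 lay inside the Control range. Over 9 libraries the Log2FC with LPS was 1.21 (SE 0.56, limma adjusted p = 0.12), and without LPS library 2 it was 1.76 (limma adjusted p = 0.0221). Hsph1 was at 4.92, 2.33 and 8.02 FPKM across Control, at 6.01, 5.13 and 5.02 under LPS and at 8.08, 5.87 and 7.02 under LPS+MIC-1. Its groups overlapped in every comparison, and its Log2FC with LPS of 0.21 turned to -0.12 when libraries were rescaled to the same sum.

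The inducible HSP70 pair had a different order in the liver from that in the macrophages. Hspa1a was at 0.186, 0.0664 and 0.0650 FPKM across Control, at 0.248, 0.688 and 0.384 under LPS and at 2.49, 1.16 and 2.63 under LPS+MIC-1. These Control values stood for about 5.1, 1.0 and 1.0 estimated reads and the LPS+MIC-1 values for about 97.9, 38.8 and 99.3, so no fold change against Control is given. The LPS+MIC-1 mean was 4.75 times the LPS mean, with no overlap between the groups, and the gene was not tested because its mean was below the filter. Hspa1b was at 5.10, 2.84 and 2.46 FPKM across Control, at 0.986, 6.20 and 1.55 under LPS and at 7.75, 7.13 and 5.78 under LPS+MIC-1. LPS libraries 1 and 3 lay below every Control library and LPS library 2 above every one.

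The summed pair in the liver was at 3.57 ± 1.49 FPKM across Control, 3.35 ± 3.08 under LPS and 8.98 ± 1.09 under LPS+MIC-1 (SD, n = 3 each). All 3 LPS+MIC-1 libraries lay above all 6 others. The difference of LPS+MIC-1 from LPS was 1.58 on the log2 scale (SE 0.64) and that from Control 1.27 (SE 0.30), each with a two-sided exact permutation p of 0.1, which is the smallest that 3 against 3 libraries can give. LPS against Control was -0.31 (SE 0.69, exact permutation p = 0.7). For Hspa1b alone, LPS+MIC-1 against LPS was 1.42 (SE 0.52, limma unadjusted p = 0.0235, limma adjusted p = 0.997).

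No gene was called between LPS+MIC-1 and LPS in the liver over 9 libraries (limma, 0% of 10147 genes, 364 at an unadjusted p below 0.05, smallest adjusted p = 0.0546), so 0 of the 9 heat shock genes were. At an unadjusted p below 0.05 and a Log2FC above 1, 1 of the 9 genes passed (Hspa1b), beside 0.414% of all genes. Hspe1 was the only one of the 9 whose ranges did not overlap, beside 5.1% of all genes with a higher range. Its nearest libraries were almost tied, at 144.57 FPKM (LPS library 2) and 144.77 (LPS+MIC-1 library 1). Without LPS library 2, Hspa1b was at 2.07 (limma adjusted p = 0.052) and Hspb1 at 1.47 (0.127), and 0 of the 9 genes were called beside 0.345% of all genes. With LPS library 2 and LPS+MIC-1 library 2 both left out, a choice made after the libraries were seen to stand apart, Hspa1b was at 2.04 and Hspb1 at 1.75 (limma adjusted p = 0.0431 for both), so 2 of 9 were called higher beside 1.85% of all genes.

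**Figure D2:**
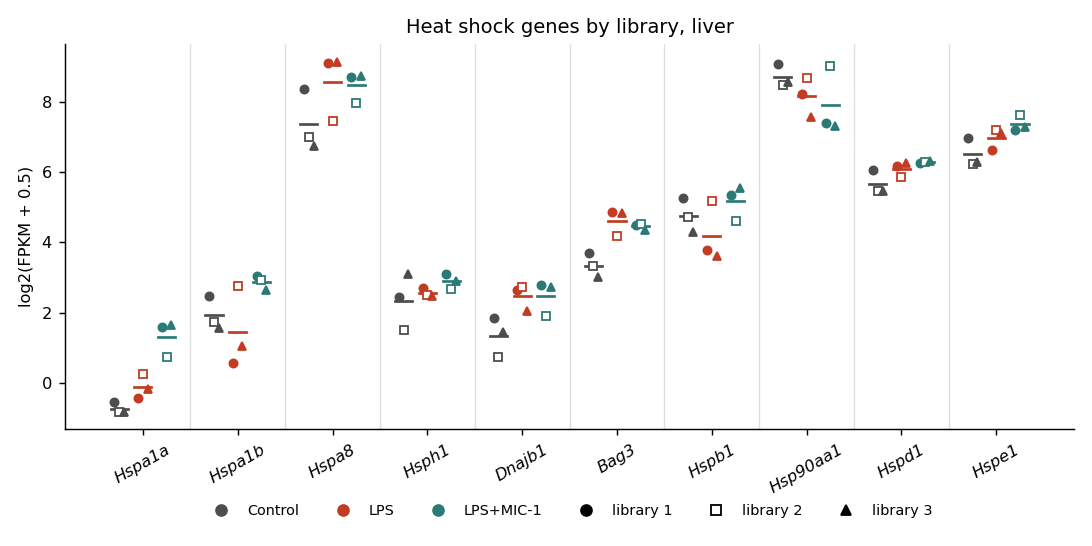
Expression of the 10 heat shock genes in the 9 liver libraries, as log2(FPKM + 0.5), drawn as in the macrophage plot. Both treated groups lie above Control for Bag3 and Dnajb1, the LPS+MIC-1 libraries lie above the rest for Hspa1a, and LPS library 2 lies away from LPS libraries 1 and 3 for Hspa1b, Hspa8 and Hspb1.

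Hspb1 was abundant in the liver, in contrast to the macrophages, and moved with the same libraries as Hspa1b. It was at 37.7, 25.6 and 19.2 FPKM across Control, at 13.2, 35.6 and 11.7 under LPS and at 39.8, 23.9 and 46.2 under LPS+MIC-1. With LPS its Log2FC was -0.57 (SE 0.46, limma adjusted p = 0.344), and without LPS library 2 it was -1.06 (limma adjusted p = 0.041), next to -1.12 (0.0212) for Hspa1b. Without that library 4 of the 9 genes were called for LPS against Control (Bag3 and Hspa8 higher, Hspa1b and Hspb1 lower), beside 34.6% of all genes, and 2 higher for LPS+MIC-1 against Control (Bag3 and Dnajb1), beside 15.3%. Leaving out LPS+MIC-1 library 2 as well gave the same 4 genes beside 34.9%, and for LPS+MIC-1 against Control it gave 3 genes (Bag3 and Dnajb1 higher, Hsp90aa1 lower at -1.36 with a limma adjusted p of 0.0103) beside 29%.

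Hsp90aa1 was at 537, 357 and 379 FPKM in liver Control, at 297, 404 and 188 with LPS, and at 168, 518 and 157 with LPS+MIC-1. Library 2 of either treated group lay within the Control range and the other treated libraries below it. Over 9 libraries the Log2FC was -0.56 with LPS (limma adjusted p = 0.377) and -0.80 with LPS+MIC-1 (0.213). With libraries rescaled to the same sum the latter was -1.46 (limma adjusted p = 0.0381), and Hsp90aa1 was then the 1 gene of the 9 called against Control, beside 25.5% of all genes called lower. The ratio of Hspa8 to Hsp90aa1 was 0.277 to 0.608 in the Control libraries, 1.84, 0.435 and 2.99 under LPS and 2.46, 0.476 and 2.71 under LPS+MIC-1, so library 2 of both treated groups had the Control ratio.

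In the liver both genes of the chaperonin pair were higher with LPS+MIC-1 than in Control. Hspd1 was at 65.8, 43.8 and 43.6 FPKM across Control, at 71.1, 57.1 and 76.5 under LPS and at 76.5, 77.9 and 79.7 under LPS+MIC-1. Hspe1 was at 125, 75.0 and 77.2 FPKM across Control, at 97.9, 145 and 137 under LPS and at 145, 196 and 155 under LPS+MIC-1. No LPS+MIC-1 library overlapped Control for either gene. Against Control, Log2FC with LPS+MIC-1 was 0.86 for Hspe1 (SE 0.26, limma adjusted p = 0.0327) and 0.63 for Hspd1 (SE 0.21, limma adjusted p = 0.0437), past the adjusted p alone and below the minimum fold; 4 of the 9 genes passed the adjusted p in the higher direction, beside 20.1% of all genes. Rescaling to the same sum turned Hspd1 to -0.02. With LPS alone the values were 0.47 (limma adjusted p = 0.185) and 0.43 (0.134). The ratio of Hspe1 to Hspd1 was 1.71 to 1.90 in the Control libraries, 1.38 to 2.53 under LPS and 1.89 to 2.52 under LPS+MIC-1. The highest ratios, 2.53 and 2.52, were in library 2 of the LPS and of the LPS+MIC-1 group, and LPS libraries 1 and 3, at 1.38 and 1.79, lay at or below the Control range.

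**Figure D3:**
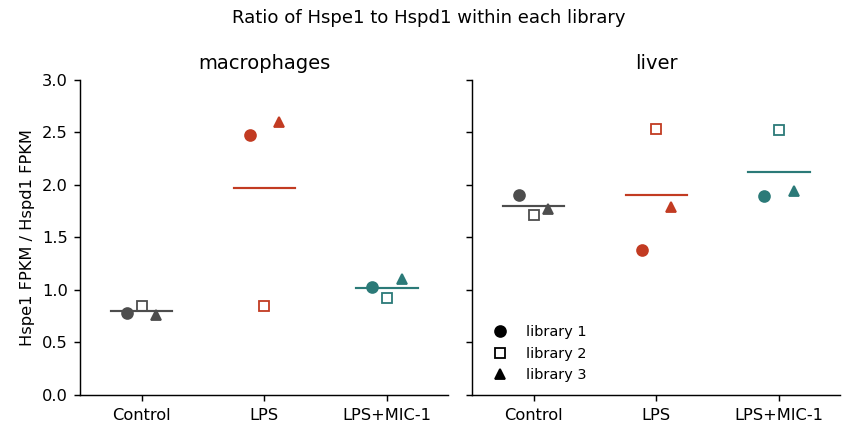
Ratio of Hspe1 to Hspd1 FPKM within each library, on a linear axis from 0, for the 3 groups of each table with library 2 as an open square. In the macrophages LPS libraries 1 and 3 (2.47 and 2.60) stand above all other libraries, and in the liver the groups overlap.

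**Figure D4:**
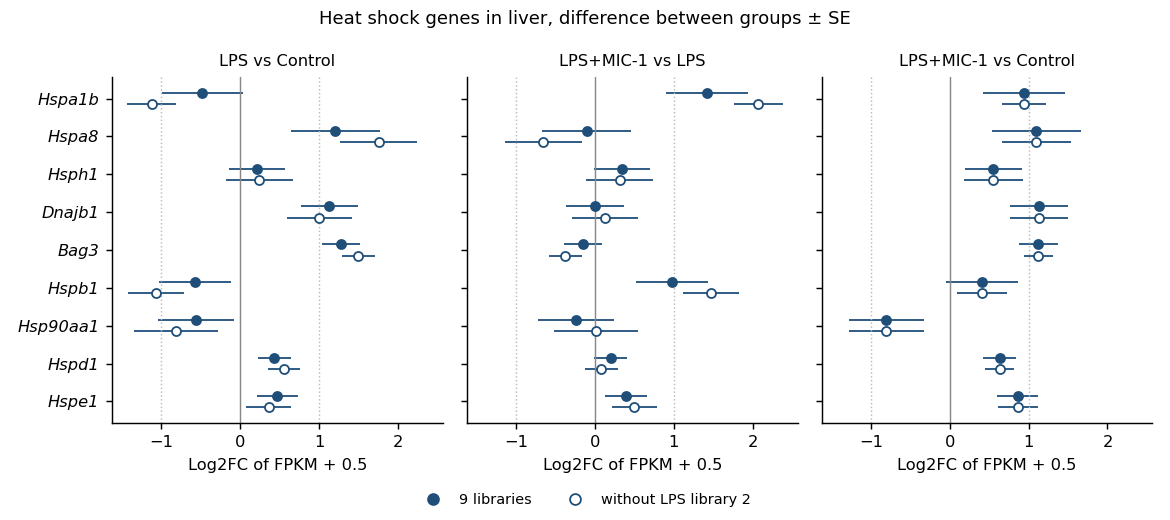
Log2FC in the liver of the 9 tested genes in the 3 comparisons, with SE bars, fitted over 9 libraries (filled) and without LPS library 2 (open); dotted lines mark the minimum fold of 1 in either direction. Bag3 lies beyond 1 for both treated groups against Control in both fits, and Hspa1b, Hspa8 and Hspb1 shift most for LPS against Control when LPS library 2 is left out.

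Averaging the closest 2 libraries of each liver group, also a choice made after the data were seen, left 2 values per group and called 0 of the 9 genes in the 3 liver comparisons, beside 1.49%, 0% and 1.58% of all genes. Bag3 then had a Log2FC of 1.07 with LPS (limma adjusted p = 0.172) and 1.05 with LPS+MIC-1 (0.145). The median Log2FC of the 9 genes over 9 libraries was 0.43 with LPS against Control beside 0.15 for all genes, 0.20 beside -0.01 for LPS+MIC-1 against LPS, and 0.86 beside 0.15 for LPS+MIC-1 against Control.

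Markers of other cells differed between the liver libraries, and not all in the same direction. The summed FPKM of 8 macrophage markers was 34.6 to 49.9 in the Control libraries, 632, 130 and 616 under LPS and 137, 451 and 141 under LPS+MIC-1, and Ptprc was listed at 0 in all Control libraries. That of 9 neutrophil markers was 37.4 to 53.0 in the Control libraries, 349 to 444 under LPS and 189 to 456 under LPS+MIC-1, and Mpo and Csf3r were listed at 0 in all Control libraries. Hepatocyte markers were highest in Control library 1, at 113078 against 55423 and 55486 in the other Control libraries, and 9 of the 10 heat shock genes, all but Hsph1, were also highest in that library among the Controls. That library also had the largest FPKM sum of the Controls, 758661 against 624051 and 590303. Its estimated depth was 7.96 Mreads against 3.57 and 3.41. The share of all genes highest in it was not counted, so nothing is read from the 9 genes. Cd14 made up most of the macrophage sum under LPS. It was at 569, 84.2 and 552 FPKM in the LPS libraries and at 56.7, 407 and 61.4 with LPS+MIC-1. Library 2 of each group thus had a level unlike the rest of its group. Cxcr2, a neutrophil marker, was lower under LPS, at 3.89 to 10.1 FPKM against 26.5 to 42.6 in Control. The median log2 difference of the LPS libraries from Control was 1.29, 0.57 and 1.19 for macrophage markers. For neutrophil markers it was 3.39, 1.74 and 3.46. For Kupffer cell markers it was -0.77, -0.28 and -0.67. Endothelial markers were at -0.81, -0.15 and -0.75, and stellate and fibroblast markers at -1.10, -0.00149 and -1.19. Some genes went against these medians. Marco, a Kupffer cell marker, was at 2.18 to 6.79 FPKM across Control and 23.1 to 40.4 under LPS. Lyve1, an endothelial marker, was at 7.28 to 10.2 and 20.6 to 32.4. The summed Kupffer cell markers overlapped, at 29.2 to 51.0 FPKM across Control and 36.9 to 53.9 under LPS. The part of these cells in the heat shock values was not tested, and in whole liver fewer cells of a type and less RNA per cell cannot be told apart.

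The levels of the 10 genes, which FPKM gives per length, differed widely within a table. In macrophage Control the order was Hspa8, Hsp90aa1, Hspd1, Hspe1, Hsph1, Bag3, Dnajb1, Hspa1b, Hspa1a and Hspb1, and only Hsp90aa1 and Hspd1 were neighbours with overlapping ranges. Hspa8 ranked 32 of 21441 genes there and Hspa1a ranked 10679. In liver Control the order was Hsp90aa1, Hspa8, Hspe1, Hspd1, Hspb1, Bag3, Hsph1, Hspa1b, Dnajb1 and Hspa1a, with overlap between Hspa8 and Hspe1 and between each neighbour from Bag3 to Dnajb1. Hspb1 was last in the macrophages and above Bag3 in the liver, and Hsp90aa1 stood above Hspa8 in the liver. The tables were scaled separately, so levels are ordered within a table and not compared between them.

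The genes whose FPKM over the 9 macrophage libraries was most like that of summed Hspa1a and Hspa1b were Tnfrsf12a, Sepw1, Taf10, Rps4x and Ctsb, with Pearson r of 0.996 to 0.997, but 1110 of 9903 genes had an r above 0.9. Among the heat shock genes r was 0.981 for Hspb1, 0.969 for Bag3, 0.714 for Hspa8, -0.36 for Hsp90aa1 and -0.59 for Hspd1. In the liver the genes most alike were Sepx1, 2310061C15Rik, Rnase4, Akr1e1 and Mmd, with r of 0.944 to 0.954, and 26 of 10146 genes had an r above 0.9. Hspb1 had an r of 0.863 with the pair there and Bag3 of 0.06. These values describe 9 libraries that share groups and depth, and no p is given.

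The wider chaperone network was read from 10 lists of 100 further genes, of which 98 were in the tables. In the liver 84 passed the filter, and with LPS 22 rose and 2 fell (limma, adjusted p below 0.05 and a Log2FC beyond 1), with a median Log2FC of 0.56 beside 0.15 for all genes, of which 13.4% were called higher and 11.2% lower. With LPS+MIC-1 against Control 22 rose and 2 fell, with a median of 0.64, beside 13.8% of all genes called higher and 11.5% lower. Between LPS+MIC-1 and LPS 0 of 84 were called. Without LPS library 2 the counts with LPS were 27 higher and 3 lower, beside 19% and 15.6% of all genes, and with LPS+MIC-1 against Control 23 and 2, beside 15.3% and 12.4%. With libraries rescaled to the same sum they were 15 and 6 with LPS, beside 7.85% and 18.2% of all genes, and 6 and 11 with LPS+MIC-1, beside 5.27% and 25.5%. With the closest 2 libraries averaged 0 were called.

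Endoplasmic reticulum chaperones, which fold secreted proteins, were the list with the most called genes. With LPS 8 of 14 rose (median Log2FC 1.58) and with LPS+MIC-1 7 of 14 (median 1.55), beside 13.4% and 13.8% of all genes. With rescaled libraries these counts were 7 and 2, beside 7.85% and 5.27% of all genes called higher. Hspa5 (BiP), their HSP70, was at 288, 132 and 82.9 FPKM across Control, at 794, 256 and 779 under LPS and at 520, 370 and 513 under LPS+MIC-1. LPS library 2 lay inside the Control range, and the Log2FC was 1.88 (SE 0.55, limma adjusted p = 0.0302) with LPS and 1.65 (SE 0.55, 0.0443) with LPS+MIC-1. Its partners followed: Dnajb9 rose by 2.39 on the log2 scale with LPS (limma adjusted p = 0.0367) and Dnajb11 by 1.93 (0.00546). The disulphide isomerase Pdia6 rose by 2.13 (limma adjusted p = 0.00733), and the HSP90 of this compartment, Hsp90b1, by 1.09 (0.0178), while with LPS+MIC-1 Hsp90b1 was at 0.93 (0.0281), below the minimum fold. With LPS+MIC-1 against Control, Sdf2l1, a partner of Dnajb11, rose by 1.81 (limma adjusted p = 0.0272).

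Of the mitochondrial chaperones and proteases, 4 of 10 rose with LPS and the same 4 with LPS+MIC-1, and with rescaled libraries 2 and 0 were called. They were the mitochondrial HSP70 Hspa9 (Log2FC 1.22 with LPS, limma adjusted p = 0.0375), its HSP40 Dnaja3 (1.38, 0.0162), its exchange factor Grpel1 (1.35, 0.0163) and the protease subunit Clpx (1.23, 0.00282). Hspa9 was at 139, 57.8 and 147 FPKM with LPS against 36.5 to 65.5 in Control, so LPS library 2 again lay inside the Control range. With rescaled libraries Hspa9 was at 0.86 with LPS (limma adjusted p = 0.0872) and 0.77 with LPS+MIC-1 (0.113). The chaperonin pair Hspd1 and Hspe1 of the same compartment was not called in either comparison.

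Among the cytosolic lists the counts were smaller, and with rescaled libraries 1 HSP90 co-chaperone was called higher and 2 lower in either comparison, 1 and 0 CCT subunits were called, and 0 small heat shock proteins. Of all liver genes 13.4% were called higher with LPS and 13.8% with LPS+MIC-1, and several of the list counts below lie near these shares. Of 19 HSP90 co-chaperones, 3 rose with LPS: Fkbp5, a glucocorticoid-inducible immunophilin (Log2FC 2.91, limma adjusted p = 0.00414), Nudc (1.25, 0.00531) and the ATPase activator Ahsa1 (1.02, 0.00622). With LPS+MIC-1 4 of 19 rose, these and the kinase co-chaperone Cdc37 (1.12, limma adjusted p = 0.0218). The constitutive Hsp90ab1 was at -0.73 (limma adjusted p = 0.108) and -0.79 (0.0873). Of 8 chaperonin CCT subunits 2 rose in both comparisons, Cct3 (1.41 with LPS, limma adjusted p = 0.00262) and Cct5 (1.13, 0.0082). Of 6 HSP70 binding and exchange factors, Hspbp1 rose (2.12, limma adjusted p = 0.0288) and St13 fell (-1.09, 0.013) with LPS, and the same genes moved the same way with LPS+MIC-1. Of 4 small heat shock proteins Hspb8, the partner of Bag3 in autophagy, rose from 104 ± 5.73 to 229 ± 39.2 FPKM with LPS (SD, n = 3 each, Log2FC 1.12, limma adjusted p = 0.00422) and was at 287 ± 17.8 with LPS+MIC-1 (1.46, 0.00153). Of 14 HSP40 genes 1 rose (Dnajb14) and of 5 HSP70 genes 1 (Hspa14) in both comparisons, and Hspa1l fell with LPS+MIC-1 (-1.45, limma adjusted p = 0.01). The ubiquitin gene Ubb rose by 1.95 on the log2 scale with LPS (limma adjusted p = 0.0211). Hsf1 was listed at 0 in all 3 Control libraries and did not pass the filter, and Hsf2, which can pair with Hsf1 on heat shock elements, was lower with LPS (-1.01, limma adjusted p = 0.0253) and at -0.84 with LPS+MIC-1 (0.0448).

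**Figure D5:**
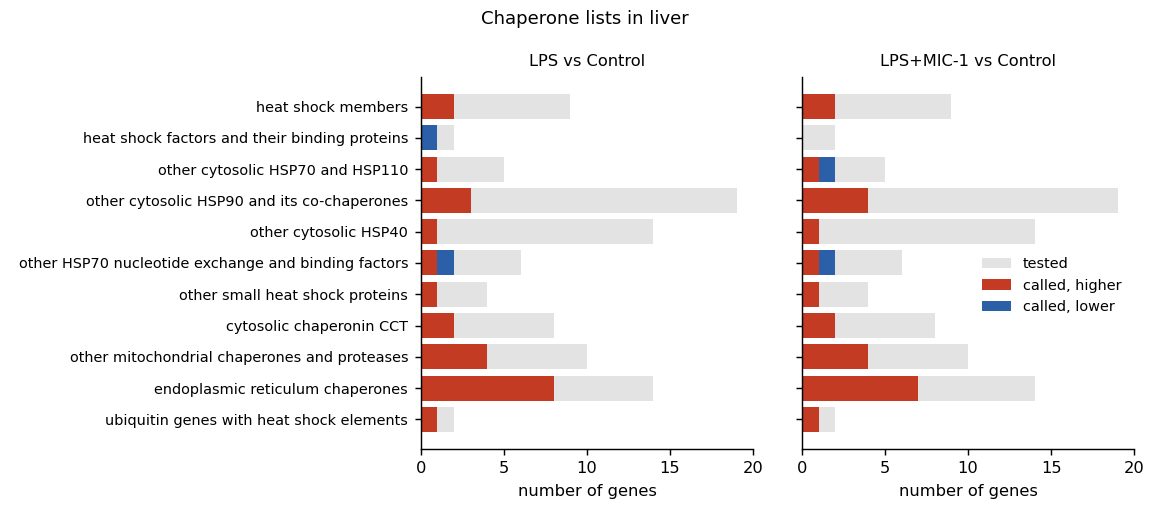
Number of liver genes tested (grey) and called higher (red) or lower (blue) in the heat shock genes and 10 further chaperone lists, for LPS and LPS+MIC-1 against Control. The endoplasmic reticulum chaperones have the most called genes, 8 and 7 of 14, and the heat shock genes have 2 of 9 in both. Of all genes tested, 13.4% and 13.8% were called higher.

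In the macrophages 81 genes of these lists were tested over 9 libraries. With LPS 0 were called, with LPS+MIC-1 against LPS 3 were higher and 1 lower (3.87% of all genes called), and with LPS+MIC-1 against Control 2 were higher and 3 lower (5.59%). With libraries rescaled to the same sum, 2 and 1 were called higher and 0 lower in these comparisons, beside 3.46% and 3.81% of all genes. The 3 higher genes were endoplasmic reticulum genes. Hspa5 was at 845, 852 and 852 FPKM across Control, at 918, 855 and 901 under LPS and at 1805, 1991 and 1810 under LPS+MIC-1, with a Log2FC against LPS of 1.07 (SE 0.12, limma adjusted p = 0.00131) and of 1.04 without LPS library 2. Dnajb9 was at 39.7, 52.7 and 42.3 FPKM with LPS+MIC-1 against 11.6 to 14.7 in the 6 other libraries (1.76, limma adjusted p = 0.000674), and Pdia4 at 194, 230 and 201 against 82.8 to 113 (1.198, 0.00141). The cyclophilin Ppid, an HSP90 co-chaperone, was at 41.2, 46.8 and 38.5 FPKM against 79.9 to 98.5 in the others (-1.03 against LPS, limma adjusted p = 0.00198), next to -1.30 (0.00445) for Fkbp4 and -1.57 (0.00848) for the HSP40 Dnajc9 against Control. With macrophage libraries 1 and 3 of each group averaged, chosen after the data were seen, none of these genes was called (Hspa5 at 1.10 with a limma adjusted p of 0.199, and 0 of all 9905 genes called). Ubb, by contrast, was at 1407, 417 and 1535 FPKM with LPS against 341 to 429 in Control and 570 to 625 with LPS+MIC-1, so it followed the same 2 LPS libraries as Hspa1a and Hspa1b. Without LPS library 2, 12 genes of these lists were called higher and 11 lower with LPS, beside 34.2% of all genes called, and 8 higher and 8 lower with LPS+MIC-1 against LPS, beside 23.3%.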

How the data were processed

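RNA was sequenced from macrophages and liver of mouse. Per the study's methods and the submitters' processing notes, the authors aligned reads to RefSeq mm9 transcripts with kallisto 0.45.0, imported them per gene and scaled them with DESeq2 1.20.0, and the deposited values are FPKM, 1 table for macrophages and 1 for liver, each with 9 libraries. RNA had been purified on RNeasy Mini columns, while the library preparation kit and strand setting are not given in the sources used here. Because these are not counts, log2(FPKM + 0.5) was fitted with limma 3.58.1 (trend, R 4.3.3) over the 9 libraries of a table, for 9905 and 10147 genes with a mean FPKM above 1, with Benjamini-Hochberg adjustment over all genes. A gene was called at an adjusted p below 0.01 (macrophages) or 0.05 (liver) and a Log2FC beyond 1 in either direction. Fold changes on this scale understate those of low genes. Summed Hspa1a and Hspa1b in the liver were tested by exact permutation. The code was tested on simulated data. Reads per library were estimated from FPKM steps and transcript lengths.

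The genes, the chaperone lists and the tests were chosen with earlier results of these data known. All 10 genes and their HSP70 sum are named, with at most 4 called genes per further list and comparison, chosen by the size of the Log2FC, and Hsf1, Hsf2, Hspa5, Hspa9, Hsp90ab1 and Hsp90b1 in any case. Alternatives were pseudocounts of 0.1 and 1, no filter, rescaling to the same FPKM sum, TMM factors (trimmed mean of M-values, computed on the FPKM), only the 2 compared groups in the fit, no minimum fold, and leaving out each library. Chosen after seeing the data were averaging the closest libraries, leaving out library 2 of both treated liver groups, and removing a trend in transcript length.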

Additional observations from a re-analysis of the deposited data

Results flagged for a closer look

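Several genes were lower in every macrophage library and higher in every liver library for the same comparison. The difference between the tables was not tested, since they were scaled separately, and groups of 3 were not searched for single outlying libraries. For LPS+MIC-1 against LPS, Hspa1a had a Log2FC of -4.25 in the macrophages and 1.43 in the liver, Hspe1 of -0.74 and 0.39, and summed Hspa1a and Hspa1b of -4.77 and 1.58. For LPS+MIC-1 against Control, Hspa1b was at -0.71 and 0.95, Dnajb1 at -0.095 and 1.13, Hspe1 at -0.65 and 0.86, and Hspd1 at -1.01 and 0.63. Of 8172 genes tested in both tables, 1.73% were lower in the macrophages and higher in the liver in this way for LPS+MIC-1 against LPS and 12.0% for LPS+MIC-1 against Control. Hspa1a, not tested in the liver, and the summed pair are outside these genes. The macrophage values of Hspa1a and Hspa1b led to the choice of genes, so nothing is read from them. For Hspa1a the nearest macrophage libraries were at 0.511 FPKM (LPS+MIC-1) and 0.637 (LPS). For Hspe1 the nearest liver libraries were almost tied, at 144.57 FPKM (LPS library 2) and 144.77 (LPS+MIC-1 library 1). Rescaling to the same sum turned Hspd1 in the liver to -0.0151.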

How the results depend on the processing

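In the macrophages the number of the 10 genes called was 0 in each comparison. Leaving out 1 library gave 0 to 4 for LPS against Control, 0 to 4 for LPS+MIC-1 against LPS and 0 to 1 for LPS+MIC-1 against Control, with 4, 4 and 1 without LPS library 2. Of all 9905 genes, 0 to 3386, 109 to 2310 and 141 to 1560 were then called. With no minimum fold 1 gene was called for LPS+MIC-1 against LPS (Hspa8, lower), beside 312 of 9905 genes called lower. With only the 2 compared groups 1 was called for LPS+MIC-1 against Control, beside 736 of 9905 genes higher and 805 lower. Nothing is read from these counts. Of 534 macrophage values under an alternative 506 moved by less than the spread between libraries and 28 by more. Leaving out a library of the group not compared, or fitting only the 2 compared groups, cannot change a Log2FC. Part of the 506 was therefore fixed in advance. The spread is that of the fit over 9 libraries, and LPS library 2 widens it for genes such as Hspa1a. Nothing is read from the 506. Rescaling turned the sign of 4 genes for LPS against Control, 2 for LPS+MIC-1 against LPS and 2 for LPS+MIC-1 against Control. Leaving out 1 library spanned 0 for Hsph1 in all 3 comparisons, for Hsp90aa1 (-0.11 to 0.0089) with LPS, for Hspd1 (-0.17 to 0.47) between LPS+MIC-1 and LPS and for Hspa1a (-0.0967 to 0.18) between LPS+MIC-1 and Control.

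In the liver 2 genes were called for LPS against Control. The count was 1 with a pseudocount of 1, with no filter and with only the 2 groups, 0 when rescaled or averaged, 4 with library 2 of both treated groups left out, and 1 to 4 leaving out 1 library. All genes called were 1234 higher and 1019 lower with a pseudocount of 1, and 1291 and 1237 with no filter. They were 1033 and 940 with only the 2 groups, and 1227 to 3510 in all leaving out 1 library. Dnajb1 was lost without Control 2 or 3, any LPS library, or LPS+MIC-1 1 or 3 (limma adjusted p of 0.0564 to 0.129), and Hspa8 was called without Control 1 (1.70, limma adjusted p = 0.0371). For LPS+MIC-1 against LPS the count was 0 leaving out 1 library, beside 0 to 35 of all genes. It was 1 by unadjusted p, beside 0.414% of all genes called higher, and 2 with both library 2 left out, beside 1.85%. For LPS+MIC-1 against Control the count was 4 with no minimum fold, 1 with a pseudocount of 1, when rescaled (Hsp90aa1, lower at -1.46) or with only the 2 groups, 0 when averaged, and 0 to 4 leaving out 1 library. All genes called were 2038 higher with no minimum fold, and 1270 higher and 1043 lower with a pseudocount of 1. They were 1421 and 1217 with only the 2 groups, and 1749 to 3111 in all leaving out 1 library. Bag3 was lost there without Control 3 (0.96), Dnajb1 without Control 2 or 3, LPS 1 or LPS+MIC-1 1 or 3, and Hsp90aa1 was called without LPS+MIC-1 2 (-1.36). Without Control 1, Hspa8 (1.60) and Hspe1 (1.10) were called as well.

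Directions turned in the liver as follows. Rescaling gave Hsph1 -0.12 with LPS, Dnajb1 -0.26 and Hspd1 -0.0858 between LPS+MIC-1 and LPS, and Hsph1 -0.0454, Hspb1 -0.23 and Hspd1 -0.0151 between LPS+MIC-1 and Control. Between LPS+MIC-1 and LPS, Dnajb1 was at -0.0023 with a pseudocount of 0.1 and at -0.22 when averaged, where Hspa8 was at 0.0431. Leaving out 1 library gave -0.21 to 0.59 for Hsph1 and -0.93 to 0.12 for the summed HSP70 pair in LPS against Control. For LPS+MIC-1 against LPS it gave -0.21 to 0.29 for Dnajb1, -0.66 to 0.18 for Hspa8 and -0.80 to 0.0629 for Hsp90aa1. The cause was not tested. Of 537 liver values under an alternative 475 kept direction and call.

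No paired analysis was possible because the columns carry no replicate numbers. The depth limits Hspa1a in liver Control (about 1.0 to 5.1 estimated reads) and Hspb1 in macrophage Control (listed at 0), and with 3 libraries per group the exact permutation test cannot go below 0.1.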
